A study of Mus musculus with 24 samples.

Results

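The genes described here are 45 mouse genes of the Fanconi pathway, homologous recombination, damage checkpoint signalling and mismatch repair. They were chosen by name, from membership of these pathways, with earlier results of these data known. Counts of them set beside all genes are therefore a description. All 45 were found among the 45706 genes of the count table and passed the filter on low counts that left 16573 genes. RNA came from cultured fibroblasts, the matrix-making cells of connective tissue, that were isolated from E13.5 mouse embryos. The groups, with 3 libraries each, were Vhl/Rassf1a Cre and Vhl/Rassf1a GFP, Vhl Cre and Vhl GFP, Rassf1a Cre and Rassf1a GFP, and wild type (WT) Cre and WT GFP. Cre, the recombinase that cuts out flanked DNA, is labelled as the knockout, and GFP as its control, in each altered genotype, and WT cells received Cre as well. How Cre or GFP was delivered, which exons were altered and how many embryos or cultures were used is not given in the labels, and if the replicates share a culture the p-values reflect technical spread alone. The design note of the series names single kidney tubule cells, whereas each library is labelled as bulk fibroblasts. The series title names the question as the DNA damage, chromosomal instability and expression changes that follow loss of Vhl, of Rassf1a or of both.

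The Fanconi pathway repairs crosslinks that join the strands of DNA. A core complex with a ubiquitin ligase, FANCL, and its partner enzyme UBE2T marks the FANCD2 and FANCI proteins, after which nucleases open the crosslink and homologous recombination, guided by BRCA1, PALB2 and BRCA2, restores the broken strand. The kinases ATM and ATR signal the damage through CHK2 and CHK1 and hold the cell cycle, and transcripts of many of these genes are most abundant in cells that are copying their DNA. VHL is the part of a ubiquitin ligase that binds hypoxia-inducible factors for destruction, and RASSF1A is a microtubule-binding scaffold made from one promoter of Rassf1.

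Levels are given as CPM, counts of a gene scaled to the size of its library, and every gene passed or failed one test: edgeR's quasi-likelihood test with Benjamini-Hochberg adjustment over all genes tested and a threshold of 0.05. Library totals ran from 29.9 to 55.8 M counts. Vhl averaged 2.57 ± 0.26 CPM in Vhl Cre cells and 26.7 ± 0.97 CPM in Vhl GFP cells, and 2.10 ± 0.52 CPM in Vhl/Rassf1a Cre cells and 22.0 ± 1.59 CPM in Vhl/Rassf1a GFP cells (SD, n = 3 each). Rassf1 averaged 26.6 ± 1.25 CPM in Rassf1a Cre cells and 27.9 ± 2.90 CPM in Rassf1a GFP cells (SD, n = 3 each), 45.2 ± 2.11 CPM in Vhl/Rassf1a Cre cells and 32.6 ± 3.95 CPM in Vhl/Rassf1a GFP cells, and 43.7 ± 1.00 CPM in Vhl Cre cells and 26.6 ± 2.49 CPM in Vhl GFP cells. It did not pass in Rassf1a cells and rose by 0.47 with Cre in Vhl/Rassf1a cells and by 0.72 in Vhl cells on the log2 scale (adjusted p = 0.000281 and 9.51e-07). Counts of the whole gene include its other forms and do not check the Rassf1a label. The summed fibroblast markers ran from 25194 to 38442 CPM over the 24 libraries. The deviations of replicate 1 of Rassf1a GFP and replicate 2 of Vhl/Rassf1a GFP from their groups followed the GC content of genes more than in other libraries (correlation across genes 0.788 and 0.783). The main counts that rest on these 2 libraries are also given without them. Weaker GC deviation was found in other groups as well, at 0.553 in WT GFP replicate 3, 0.551 in WT Cre replicate 2 and -0.495 in Vhl Cre replicate 1. Leaving out the 2 libraries does not remove it.

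Promoters of 37 of the 45 genes, in 42 windows of 250 bases before to 50 after the start, were found in the RefSeq table of build GRCm38.p6. Those of Fanci and Fanca, which had large decreases in Vhl-deleted cells, of Chek2, the gene that rose in Vhl/Rassf1a Cre cells, and of Clspn, chosen after its values were seen, are shown 5′ to 3′ with capitals on matches to an E2F motif or a CCAAT box on either strand.
Fanci, chr7:79392088-79392387, plus strand: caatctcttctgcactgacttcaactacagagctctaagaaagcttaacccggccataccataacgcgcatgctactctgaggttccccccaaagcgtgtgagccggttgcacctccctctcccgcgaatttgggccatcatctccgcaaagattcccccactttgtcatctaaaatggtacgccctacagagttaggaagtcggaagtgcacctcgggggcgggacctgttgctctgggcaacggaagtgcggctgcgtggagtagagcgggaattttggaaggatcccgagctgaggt
Fanca, chr8:123318527-123318826, minus strand: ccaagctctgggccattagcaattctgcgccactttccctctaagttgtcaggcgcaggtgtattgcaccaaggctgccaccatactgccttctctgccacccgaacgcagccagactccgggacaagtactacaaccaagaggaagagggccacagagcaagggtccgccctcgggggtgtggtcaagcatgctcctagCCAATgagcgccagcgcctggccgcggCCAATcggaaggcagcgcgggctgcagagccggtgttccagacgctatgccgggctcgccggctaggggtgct
Clspn, chr4:126556730-126557029, plus strand: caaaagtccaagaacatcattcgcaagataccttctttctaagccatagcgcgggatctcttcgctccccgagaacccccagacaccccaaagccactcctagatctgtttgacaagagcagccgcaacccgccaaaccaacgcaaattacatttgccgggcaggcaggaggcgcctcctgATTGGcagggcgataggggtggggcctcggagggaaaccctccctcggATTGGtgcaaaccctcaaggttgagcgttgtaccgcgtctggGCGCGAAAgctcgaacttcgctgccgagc
Chek2, chr5:110839733-110840032, plus strand: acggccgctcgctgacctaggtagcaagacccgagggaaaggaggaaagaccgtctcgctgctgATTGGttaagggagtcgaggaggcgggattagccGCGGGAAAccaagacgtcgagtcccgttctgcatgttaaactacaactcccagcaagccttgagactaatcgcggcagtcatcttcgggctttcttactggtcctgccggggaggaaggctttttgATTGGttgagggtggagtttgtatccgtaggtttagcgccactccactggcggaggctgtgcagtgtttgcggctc
The E2F search used TTTCGCGC, TTTGGCGC, TTTCCCGC and TTTGCCGC, the CCAAT search used CCAAT, both strands were read, and no letters of one search are contained in the other. An E2F match stood in 26.2% of the windows of the 45 genes, against 2.85% of the windows of protein-coding genes and 2.26% of all windows. Without the 50 bases after the start these shares were 14.3%, 2.35% and 1.86%, so part of the matches of the 45 genes lay past the start. Among the 45 genes it stood in 25.0% of the windows of genes that fell in Vhl Cre cells and in 28.6% of the windows of genes that did not. CCAAT stood in 64.3% of the windows of the 45 genes, in 38.2% of those of protein-coding genes and in 37.4% of all windows. The Fanci window held neither, and the Chek2 and Clspn windows each held an E2F match and a pair of CCAAT boxes. The part of these motifs in the changes of the genes was not tested. The sequence TTTGAA or TTCGAA, a cell cycle element, stood in 9.52% of the windows of the 45 genes, or 4.76% without the 50 bases after the start, and in 17.6% of the windows of protein-coding genes, or 15.9%. The hypoxia core ACGTG or GCGTG, the sequence that hypoxia-inducible factors bind, stood in 66.7% of the windows of the 45 genes and in 49.3% of those of protein-coding genes, and in 67.9% of the windows of genes that fell in Vhl Cre cells and 64.3% of those of genes that did not. These are matches of letters, not sites shown to be bound.

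Per length, as TPM, a share of all transcripts scaled by exon length, averaged over all 24 libraries, the 45 genes spanned a wide range of levels. Msh6, which recognises mismatched bases, had the highest level, 50.6 TPM, followed by Nbn at 40.7, Topbp1 at 40.2, Mdc1 at 38.9 and Rad50 at 34.5 TPM. The order depends on the length used: with the longest transcript in place of all exons Topbp1 was highest, at 65.3 TPM, and Msh6 next, at 39.1 TPM. These sensors and scaffolds stood at the top of the range, whereas the genes of the Fanconi core and BRCA complexes lay mostly below 10 TPM. The lowest levels were those of Atrip, the partner of ATR, at 0.223 TPM, and Rad51b, a recombination gene, at 0.896 TPM. Atrip had only 8 to 28 counts in a library and Rad51b 18 to 61, which limits what can be seen of either. Some exons overlap another gene: 35.8% of those of Rad54b overlap Fsbp and 16.0% of those of Atrip overlap Trex1, both on the same strand, and 16.0% of those of Fanci overlap Polg on the opposite strand. Opposite-strand overlaps were also found for Fancc (16.4%), Rad54l (15.4%), Trp53bp1 (15.0%), Fancf (15.0%), Fancl (13.7%) and Fanca (10.5%). Smaller overlaps were found for some others. How the counting treated such reads is not stated, so the counts of genes with such overlaps are less certain.

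In Vhl Cre cells the 45 genes were mostly lower than in Vhl GFP cells. Of them, 28 fell and 1 rose in Vhl Cre cells against Vhl GFP cells, and 16 did not pass, with a median log2 fold change of -0.30 beside -0.01 for all genes tested. Among all genes tested, 18.7% fell and 17.4% rose in this comparison. By role, both members of the Fanconi ID pair and 6 of 9 core complex genes fell. So did 10 of 13 genes of the BRCA complexes and strand exchange and 5 of 9 checkpoint genes. Of the rest, 2 of 5 resection genes, 2 of 5 joint molecule genes and 1 of 2 lesion tolerance and mismatch repair genes fell. These last counts are too small to set beside the share of all genes, and the joint molecule median was -0.01. In bulk RNA, fewer cells that express these genes and less RNA per cell cannot be told apart.

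**Figure D1:**
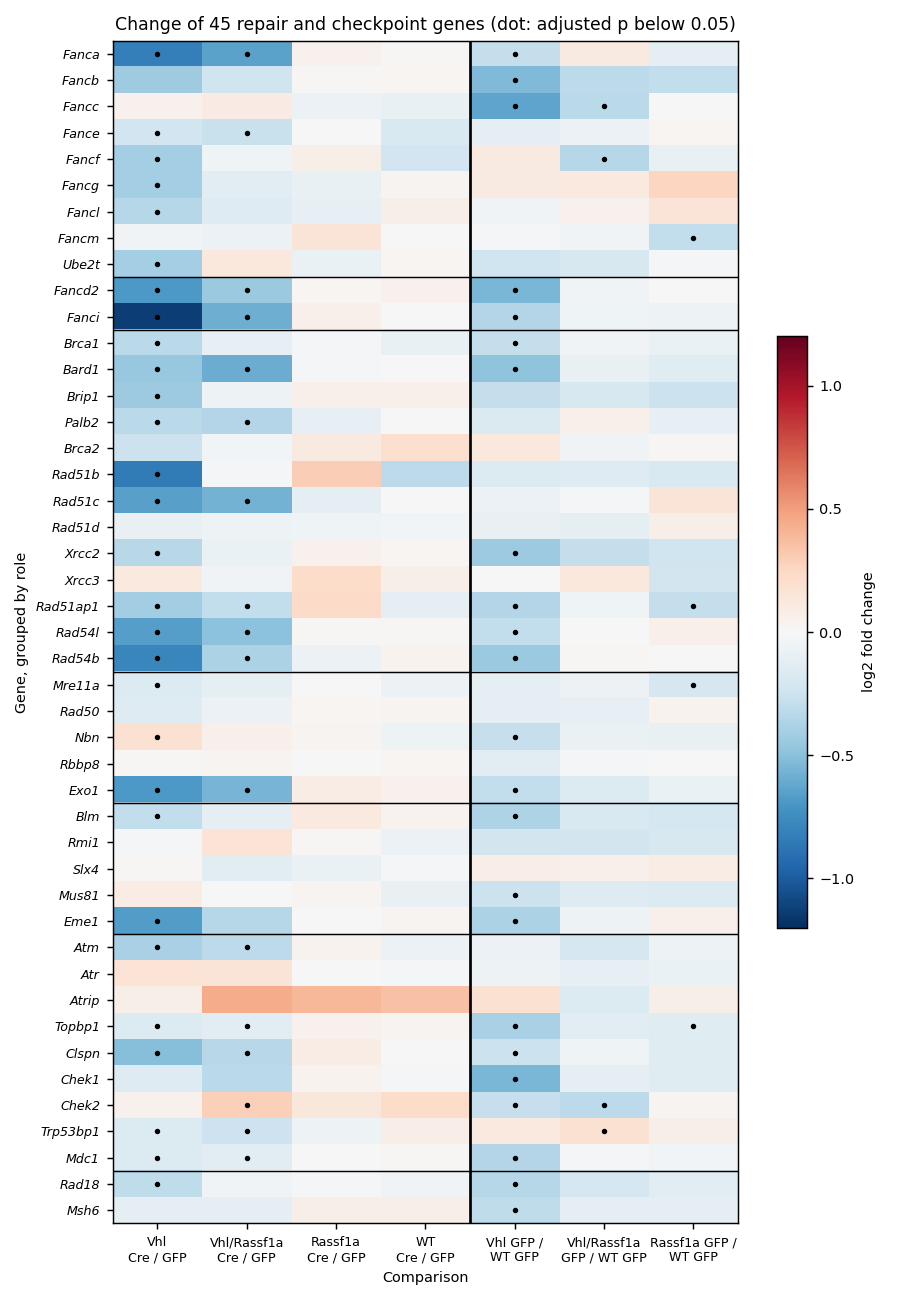
Log2 fold change of the 45 genes (rows, grouped by role in the order core complex, ID pair, BRCA complexes and strand exchange, resection, joint molecules, checkpoint, lesion tolerance and mismatch repair) in 4 comparisons of Cre with GFP and 3 comparisons of GFP libraries with WT GFP (columns). A dot marks an adjusted p below 0.05, and the dots gather in the Vhl, Vhl/Rassf1a and Vhl GFP columns, with 29, 17 and 23 of 45.

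Fanci, whose protein is clamped onto DNA together with FANCD2, had the largest decrease. It had 3.52, 3.30 and 4.34 CPM in Vhl Cre cells, against 7.81, 7.96 and 8.56 CPM in Vhl GFP cells. Every Cre library lay below every GFP library, and the log2 fold change was -1.13 ± 0.10 (SE, adjusted p = 1.01e-08). Fancd2, its partner, had 4.69, 5.15 and 5.75 CPM in Vhl Cre cells, against 8.04, 8.69 and 8.31 CPM in Vhl GFP cells. The groups did not overlap, and Fancd2 fell by 0.69 on the log2 scale (SE 0.09, adjusted p = 1.29e-06).

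Among the core complex genes, Fanca, a large scaffold subunit, fell the most. It had 9.51, 10.2 and 11.1 CPM in Vhl Cre cells, against 18.0, 17.6 and 18.6 CPM in Vhl GFP cells. The groups were well separated, at a log2 fold change of -0.82 ± 0.09 (SE, adjusted p = 2.10e-07). Fancf, an adaptor of the complex, Fancg, another subunit, and Ube2t, the ubiquitin-conjugating enzyme, fell by 0.41, 0.41 and 0.40 on the log2 scale. Fancl, the ligase itself, fell by 0.34 and Fance, which contacts FANCD2, by 0.23. The other 3 did not pass, namely Fancb at -0.43 ± 0.18 (SE), Fancc at 0.05 ± 0.08 and Fancm, the translocase that anchors the complex on DNA, at -0.04 ± 0.07.

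Within the BRCA complexes, Brca1 had 14.4, 14.8 and 14.3 CPM in Vhl Cre cells, against 16.9, 19.1 and 18.6 CPM in Vhl GFP cells. The Cre libraries were all lower, at a log2 fold change of -0.33 ± 0.08 (SE, adjusted p = 0.00133). Its partner Bard1 fell by 0.46, the helicase Brip1 by 0.44 and the bridging protein Palb2 by 0.32 on the log2 scale, while Brca2, a central mediator of recombination, stood at -0.25 ± 0.13 (SE) and did not pass. Of a family of recombination mediators, Rad51b, Rad51c and Xrcc2 fell, by 0.84, 0.65 and 0.33, and Rad51d and Xrcc3 did not pass, at -0.09 ± 0.09 and 0.11 ± 0.13 (SE).

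The factors that act in strand exchange were among the larger decreases. Rad54l, a motor protein of strand exchange, had 5.25, 5.10 and 4.83 CPM in Vhl Cre cells, against 7.90, 8.32 and 7.88 CPM in Vhl GFP cells. The groups did not overlap, and the log2 fold change was -0.67 ± 0.08 (SE, adjusted p = 7.18e-07). Its relative Rad54b fell by 0.78 and Rad51ap1, an accessory factor, by 0.42, with the overlap of Rad54b and Fsbp named above. Exo1, the nuclease that extends resection, had 7.91, 5.31 and 6.91 CPM in Vhl Cre cells, against 10.5, 11.6 and 10.3 CPM in Vhl GFP cells. These groups were also apart, at -0.69 ± 0.11 (SE, adjusted p = 3.04e-05).

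The complex that first binds a broken end did not move as a unit. Mre11a, its nuclease, fell by 0.16 on the log2 scale (adjusted p = 0.0460), Rad50, its tether, stood at -0.16 ± 0.06 (SE, adjusted p = 0.0527), and Nbn, which recruits ATM, rose. Nbn had 27.8, 26.5 and 24.3 CPM in Vhl Cre cells, against 21.8, 23.2 and 24.5 CPM in Vhl GFP cells. The groups overlapped at their nearest libraries, and the log2 fold change was 0.18 ± 0.07 (SE, adjusted p = 0.0472). Rbbp8, which starts resection, stood at 0.01 ± 0.09 (SE). Of the genes for joint molecules, Eme1, a nuclease subunit, fell by 0.67 and the helicase Blm by 0.29, while Mus81, the partner of EME1, stood at 0.09 ± 0.08, the scaffold Slx4 at 0.02 ± 0.07 and Rmi1 at -0.01 ± 0.14 (SE).

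Of the checkpoint genes, 5 of 9 fell, with a median of -0.16. Clspn, which presents CHK1 to ATR, had 15.1, 15.8 and 18.5 CPM in Vhl Cre cells, against 21.2, 25.3 and 23.8 CPM in Vhl GFP cells. All Cre libraries were lower, at -0.51 ± 0.08 (SE, adjusted p = 2.48e-05). Atm fell by 0.39, and the scaffolds Topbp1, Mdc1 and Trp53bp1 by 0.17, 0.17 and 0.16 on the log2 scale. The kinases Atr, Chek1 and Chek2 stood at 0.17 ± 0.13, -0.15 ± 0.15 and 0.05 ± 0.09 (SE), and with Atrip, at 0.07 ± 0.28, they did not pass. Rad18, a ubiquitin ligase of lesion bypass, fell by 0.30, and Msh6 stood at -0.12 ± 0.05 (SE).

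Leaving out a single library ended some of the smaller calls. The calls of Fance, Fancl and Palb2 were lost without any of 5 of the 6 libraries, with adjusted p up to 0.274, 0.112 and 0.245, and those of Mre11a and Nbn without any of 4, with adjusted p up to 0.216 and 0.199. Blm was lost without Vhl GFP replicate 2 or Vhl Cre replicate 2 (adjusted p up to 0.132), Rad18 and Xrcc2 without Vhl GFP replicate 2 (0.0724 and 0.0600), Ube2t without Vhl GFP replicate 1 (0.0743) and Topbp1 without Vhl Cre replicate 1 (0.0510).

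In Vhl/Rassf1a cells 16 of the 45 genes fell and 1 rose in Cre cells against GFP cells, with a median log2 fold change of -0.12 beside 0.00027 for all genes tested, of which 14.8% fell and 14.9% rose. By role, both genes of the ID pair, 2 of 9 core complex genes, 6 of 13 of the BRCA complexes and strand exchange, 1 of 5 of resection, none of 5 for joint molecules, 5 of 9 checkpoint genes and neither of the lesion tolerance and mismatch repair genes fell. Counts such as 2 of 9 and 1 of 5 are too small to set beside the 14.8% of all genes that fell. The checkpoint gene that rose was Chek2. The number that passed was 10 when only these 2 groups were fitted, 11 without Vhl/Rassf1a GFP replicate 1, and 16, all lower, without the GC-deviating Vhl/Rassf1a GFP replicate 2.

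Fanca had the largest decrease here. It had 15.8, 13.7 and 15.8 CPM in Vhl/Rassf1a Cre cells, against 22.0, 27.5 and 21.4 CPM in Vhl/Rassf1a GFP cells. The groups did not overlap, and the log2 fold change was -0.65 ± 0.09 (SE, adjusted p = 5.51e-06). Bard1 had 5.21, 4.68 and 4.71 CPM in Vhl/Rassf1a Cre cells, against 8.05, 7.20 and 6.82 CPM in Vhl/Rassf1a GFP cells. All Cre libraries were lower, at -0.59 ± 0.10 (SE, adjusted p = 7.68e-05), while Brca1, Brip1 and Brca2 stood at -0.10, -0.06 and -0.03 and did not pass.

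Fanci had 6.67, 6.35 and 6.97 CPM in Vhl/Rassf1a Cre cells, against 10.3, 9.32 and 10.4 CPM in Vhl/Rassf1a GFP cells. The groups were apart, at -0.58 ± 0.10 (SE, adjusted p = 6.18e-05). Fancd2 had 8.75, 8.73 and 8.56 CPM in Vhl/Rassf1a Cre cells, against 12.4, 11.0 and 12.1 CPM in Vhl/Rassf1a GFP cells. It fell by 0.45 on the log2 scale (SE 0.08, adjusted p = 0.000176). Rad54l had 6.57, 7.52 and 7.06 CPM in Vhl/Rassf1a Cre cells, against 9.81, 9.53 and 10.4 CPM in Vhl/Rassf1a GFP cells. Its log2 fold change was -0.49 ± 0.08 (SE, adjusted p = 3.24e-05), and Exo1 and Rad51c fell by 0.56 and 0.57.

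Trp53bp1, whose protein 53BP1 shields broken ends from resection, had 58.9, 61.7 and 63.8 CPM in Vhl/Rassf1a Cre cells, against 69.7, 74.7 and 74.2 CPM in Vhl/Rassf1a GFP cells. The groups did not overlap, at -0.25 ± 0.05 (SE, adjusted p = 0.000196). Chek2, the kinase downstream of ATM, had 11.9, 12.1 and 14.2 CPM in Vhl/Rassf1a Cre cells, against 10.3, 9.46 and 11.5 CPM in Vhl/Rassf1a GFP cells. The lowest Cre library lay just above the highest GFP library, and Chek2 rose by 0.29 ± 0.09 on the log2 scale (SE, adjusted p = 0.0184). In WT cells Chek2 had 16.3, 14.7 and 14.3 CPM with Cre, against 12.7, 13.8 and 12.2 CPM with GFP. Those groups did not overlap either, though Chek2 did not pass there. The difference between the Cre effects in Vhl/Rassf1a and WT cells did not pass for Chek2.

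The call of Chek2 was lost without Vhl/Rassf1a GFP replicate 2 or Vhl/Rassf1a Cre replicate 3, with adjusted p up to 0.158. Those of Atm, Mdc1 and Topbp1 were lost without any of 4 of the 6 libraries (adjusted p up to 0.167, 0.184 and 0.191), that of Fance without any of 3 (0.142), and those of Palb2, Rad51ap1 and Rad54b without either of 2 (0.0735, 0.113 and 0.0677). Atm shows how Vhl/Rassf1a GFP replicate 2 enters, with 34.5, 32.4 and 31.6 CPM in Cre cells, against 46.0, 33.5 and 43.2 CPM in GFP cells. That library lay within the range of the Cre libraries.

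**Figure D2:**
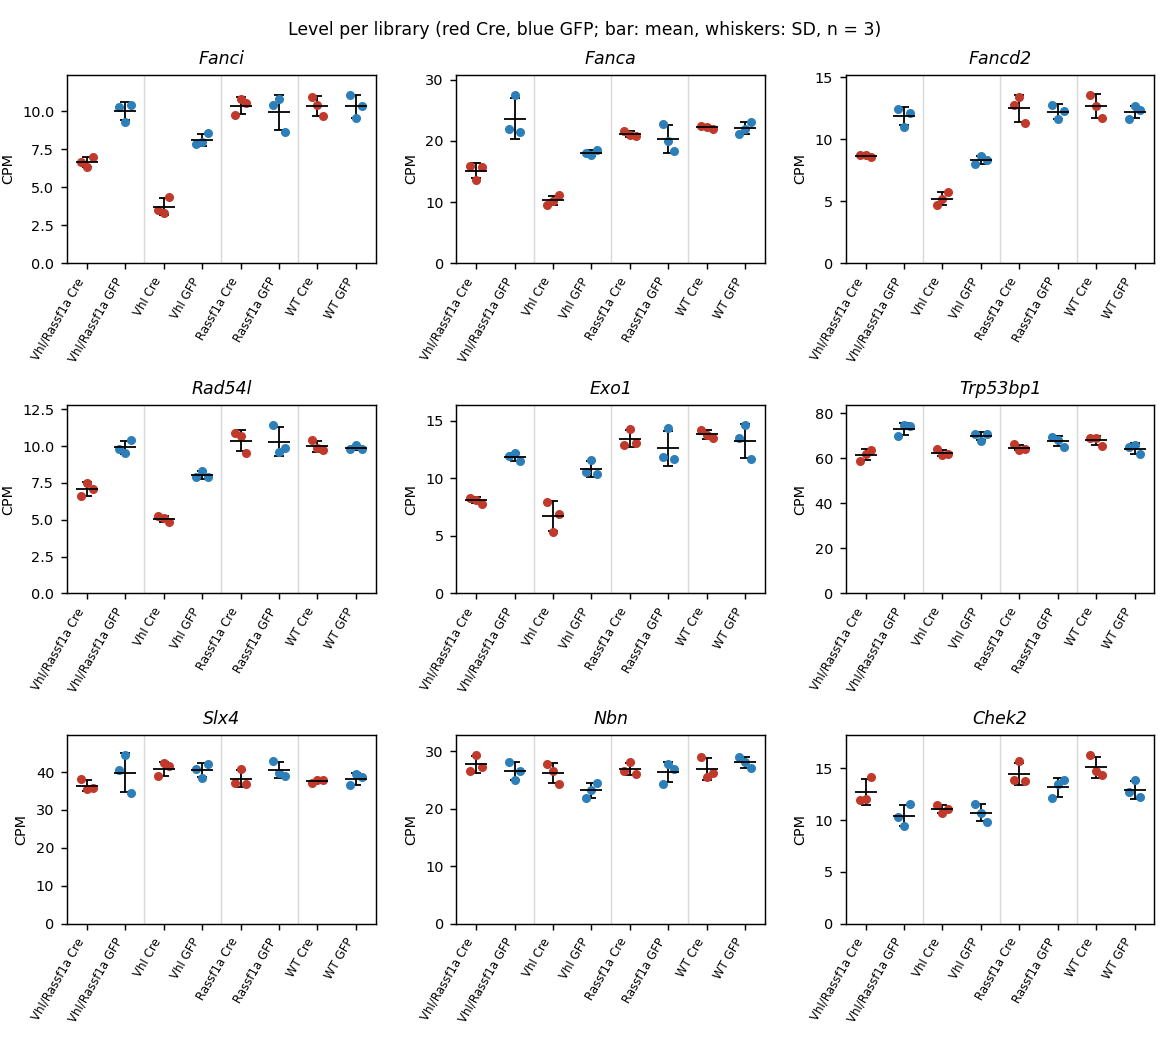
Level in CPM (vertical axis, linear, from 0) of 9 of the genes in each of the 8 groups (horizontal axis). Points are libraries, the short bar is the mean and whiskers are the SD of 3 libraries. Fanci, Fanca, Fancd2, Rad54l and Exo1 had their lowest mean in Vhl Cre cells, and Slx4, which did not pass in either Vhl-deleted genotype, lay at 34.4 to 44.5 CPM in all libraries.

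All 16 genes that fell in Vhl/Rassf1a Cre cells were among the 28 that fell in Vhl Cre cells, which is 100% of the smaller list and 57.1% of the larger. The comparisons share no library. Of the 45 genes, 33 had a more negative log2 fold change in Vhl cells. Pearson's r across the 45 genes was 0.739, as a description of genes measured in the same libraries. The overlap, the count of 33 and r were not computed for all genes tested, so none is shown to be particular to the 45 genes. The test of the difference between the Cre effects, Vhl/Rassf1a minus Vhl, passed for Fanci alone, at 0.55 ± 0.14 (SE, adjusted p = 0.0211), while 0 genes were lower and the median was 0.14 beside 0.01 for all genes tested. Among all genes tested, 2.65% were lower and 3.44% higher in this difference. The difference for Fanci was lost when only these groups were fitted and without Vhl GFP replicate 3, Vhl Cre replicate 1 or 2, or Vhl/Rassf1a Cre replicate 1 or 3, with adjusted p up to 0.0974. For the other 44 genes a p above the threshold does not show equal effects: Rad51b differed by 0.82 ± 0.30 (SE, adjusted p = 0.124) and Fancd2 by 0.24 ± 0.12 (SE, adjusted p = 0.316).

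**Figure D3:**
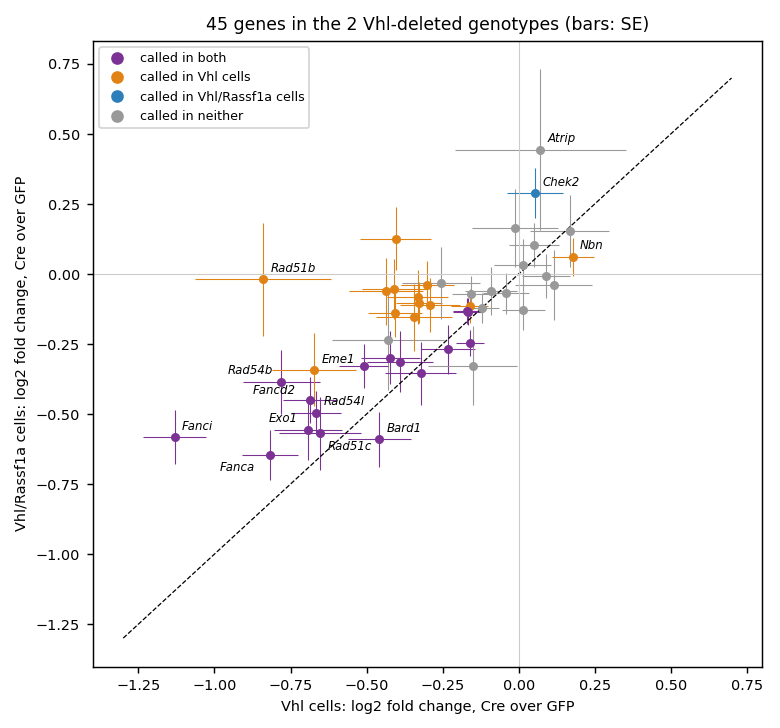
Log2 fold change of Cre over GFP in Vhl cells (horizontal axis) and in Vhl/Rassf1a cells (vertical axis) for the 45 genes. Points are genes, bars are standard errors, the dashed line marks equal values and colours mark where a gene passed. Fanci lies farthest from the line among genes called in both, at -1.13 and -0.58.

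Cre without Vhl deletion left no gene of the 45 past the threshold. In Rassf1a cells, Cre against GFP gave 0 of 45 by edgeR and 0 by DESeq2, with 2 at an unadjusted p under 0.05 in edgeR and a median log2 fold change of 0.03. The count was also 0 without Rassf1a GFP replicate 1. Among all genes tested, 0.205% fell and 0.187% rose. In WT cells the counts were also 0 by edgeR and 0 by DESeq2, with 2 at an unadjusted p under 0.05 and a median of 0.01, and 0.428% of all genes fell and 0.833% rose. Fanci had 9.78, 10.8 and 10.5 CPM in Rassf1a Cre cells, against 10.4, 10.8 and 8.63 CPM in Rassf1a GFP cells. It had 11.0, 10.4 and 9.70 CPM in WT Cre cells, against 11.1, 9.58 and 10.4 CPM in WT GFP cells. In both genotypes the groups overlapped.

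The Cre effect in each altered genotype was also tested against that in WT or Rassf1a cells. Vhl minus WT was lower for 14 of the 45 genes and higher for none, with a median of -0.28 beside -0.01 for all genes tested, of which 12.5% were lower and 10.7% higher. The 14 were Bard1, Brip1, Clspn, Eme1, Exo1, Fanca, Fancd2, Fancg, Fanci, Rad51c, Rad54b, Rad54l, Topbp1 and Trp53bp1. Fanci differed by -1.13 ± 0.14 (SE, adjusted p = 2.11e-06). The count was 26 after a correction of counts for GC content. Shares of all genes in this paragraph are from the main fit alone, and counts from other fits cannot be set beside them. Vhl/Rassf1a minus WT was lower for 8 genes, with a median of -0.14, beside 7.4% lower and 7.41% higher among all genes tested. The 8 were Bard1, Exo1, Fanca, Fancd2, Fanci, Rad51c, Rad54l and Trp53bp1, and the count was 13 after the GC correction and 14 with both GC-deviating libraries left out. Vhl/Rassf1a minus Rassf1a was also lower for 8 genes, with a median of -0.18, beside 7.1% lower and 7.95% higher. Here Clspn and Rad51ap1 stood in place of Rad51c and Trp53bp1, and the count was 14 after the GC correction and 13 without Vhl/Rassf1a GFP replicate 2. Rassf1a minus WT passed for none of the 45 by edgeR (3 at an unadjusted p under 0.05) or by DESeq2, nor without Rassf1a GFP replicate 1, beside 0% lower and 0.00603% higher among all genes tested. Comparisons that share a genotype here share its libraries. Leaving out 1 library also ended the Vhl minus WT calls of Bard1, Brip1, Fancg and Topbp1 (adjusted p up to 0.0685, 0.0933, 0.0514 and 0.0994) and the Vhl/Rassf1a minus WT call of Rad51c (up to 0.112).

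Many of the genes were already lower in Vhl cells that had received GFP. Vhl GFP against WT GFP had 23 of the 45 lower and 0 higher, with a median log2 fold change of -0.26 beside 0.01 for all genes tested, of which 14.9% were lower and 17.2% higher. This comparison shares the Vhl GFP libraries with that of Vhl Cre against Vhl GFP, so the values are set side by side. Fancd2 fell by 0.55 on the log2 scale in Vhl GFP cells against WT GFP cells and by 0.69 in Vhl Cre cells against Vhl GFP cells, and its mean was 5.20 CPM in Vhl Cre, 8.34 in Vhl GFP and 12.2 CPM in WT GFP cells. Several genes fell in the GFP comparison that did not pass with Cre in Vhl cells: Fancc by 0.63, Chek1 by 0.55, Fancb by 0.53, Msh6 by 0.31, Chek2 by 0.27 and Mus81 by 0.26. Nbn fell by 0.28 in Vhl GFP cells against WT GFP cells and rose by 0.18 with Cre in Vhl cells. Others fell with Cre and did not pass in the GFP comparison, namely Atm, Brip1, Fance, Fancf, Fancg, Fancl, Mre11a, Palb2, Rad51b, Rad51c, Trp53bp1 and Ube2t. Whether the alleles, the embryos or the cultures underlie the GFP difference cannot be told apart. Leaving out 1 library ended the GFP calls of Chek2, Clspn, Eme1, Exo1, Fanca, Fancb and Mus81, with adjusted p up to 0.114, 0.0881, 0.147, 0.179, 0.0594, 0.0772 and 0.0691.

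In the other altered genotypes few of the 45 genes passed without Cre. Rassf1a GFP against WT GFP had 4 genes lower, Fancm, Mre11a, Rad51ap1 and Topbp1, and 0 higher, beside 6.68% lower and 9.39% higher among all genes tested. Vhl/Rassf1a GFP against WT GFP had 3 lower, Chek2, Fancc and Fancf, and 1 higher, Trp53bp1, at 0.18 ± 0.05 (SE, adjusted p = 0.00843), beside 4.68% lower and 6.86% higher. These shares are near the background and are not a result about the 45 genes. None of these 8 calls held when only the groups compared were fitted. The Rassf1a count was 1 without WT GFP replicate 1 or 2 or Rassf1a GFP replicate 1, and the Vhl/Rassf1a count was 2 without WT GFP replicate 1 or Vhl/Rassf1a GFP replicate 2 and 1 without WT GFP replicate 2.

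Set against WT GFP, the median log2 level of the 45 genes ordered the groups. The 3 libraries ran from -0.57 to -0.49 in Vhl Cre cells, from -0.25 to -0.23 in Vhl/Rassf1a Cre cells, from -0.26 to -0.21 in Vhl GFP cells and from -0.17 to -0.03 in Vhl/Rassf1a GFP cells, or from -0.08 to -0.03 without the GC-deviating replicate 2. Vhl Cre cells were lowest without overlap, and Vhl/Rassf1a Cre and Vhl GFP cells could not be separated. Rassf1a Cre, Rassf1a GFP, WT Cre and WT GFP libraries lay between -0.10 and 0.05, and of these WT Cre alone did not overlap with Vhl/Rassf1a GFP.

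Genes of dividing cells moved in the same groups. The 35 mitosis and spindle genes had a median log2 level, against WT GFP, averaging -1.28 in Vhl Cre, -0.51 in Vhl GFP, -0.33 in Vhl/Rassf1a Cre and -0.06 in Vhl/Rassf1a GFP libraries. The 38 replication genes averaged -0.61 in Vhl Cre, -0.31 in Vhl GFP, -0.35 in Vhl/Rassf1a Cre and -0.00143 in Vhl/Rassf1a GFP libraries, or -0.03 without replicate 2 of Vhl/Rassf1a GFP. In Vhl Cre against Vhl GFP cells all 35 mitosis genes fell, with a median of -0.81, and 27 of 38 replication genes fell and 1 rose, with a median of -0.32. In Vhl/Rassf1a Cre against GFP cells 27 of 35 and 27 of 38 fell, with medians of -0.28 and -0.36, and 29 and 24 without Vhl/Rassf1a GFP replicate 2. The cyclin Ccnb1 fell by 0.99 on the log2 scale in Vhl Cre cells, and Mcm10, a replication initiation factor, fell by 0.70 in Vhl Cre and by 0.68 in Vhl/Rassf1a Cre cells. The part that fewer dividing cells had in the decreases of the 45 genes was not tested.

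**Figure D4:**
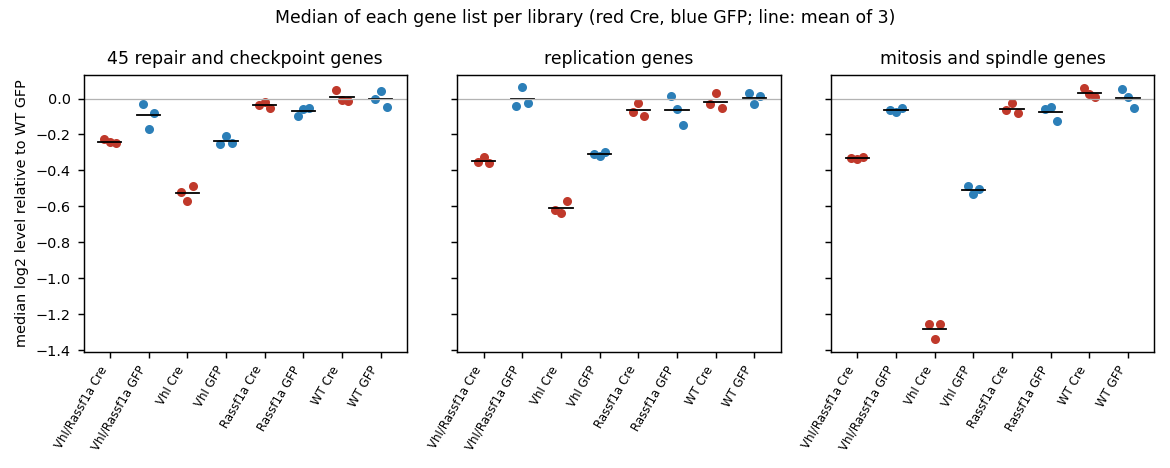
Median log2 level relative to the WT GFP mean (vertical axis) of the 45 genes, of 38 replication genes and of 35 mitosis and spindle genes, in each library of the 8 groups (horizontal axis). Points are libraries and lines are means of 3. In all 3 panels Vhl Cre libraries are lowest, at means of -0.53, -0.61 and -1.28.

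Further genes of the same pathways, outside the 45, were also among those that fell, to be read beside the 18.7% of all genes that fell in Vhl Cre cells and the 14.8% in Vhl/Rassf1a Cre cells. In Vhl Cre against Vhl GFP cells 6 of 17 other Fanconi and crosslink repair genes fell, with a median of -0.11, among them the polymerase subunit Rev3l, by 0.59, and Usp1, which removes ubiquitin from FANCD2, by 0.38. Of 28 other recombination genes tested, 9 fell and 2 rose, with a median of -0.12, including the end joining polymerase Polq, by 0.48, and the nuclease Gen1, by 0.70. Of 21 other checkpoint genes 7 fell and none rose, with a median of -0.22, and Cdc25c, Timeless and Wee1 fell by 0.77, 0.62 and 0.54. Of 10 genes of end joining, 2 fell, Prkdc and Xrcc5, a share near that of all genes, and Paxx rose by 0.44.

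In Vhl/Rassf1a Cre against GFP cells the same lists had 2 of 17, 6 of 28, 9 of 21 and 2 of 10 genes lower and none higher, so the first and the last list lay near the share of all genes. Without Vhl/Rassf1a GFP replicate 2 the lower counts were 2, 6, 8 and 3, and 1 recombination gene and 1 end joining gene were higher. Usp1 fell by 0.41, the single-strand binding subunit Rpa1 by 0.21, Timeless by 0.66, and Rad9a, of the clamp that helps activate ATR, by 0.41. Of 25 p53 targets, 8 rose and 2 fell in Vhl/Rassf1a Cre cells (8 and 3 without Vhl/Rassf1a GFP replicate 2). Mdm2 was up by 0.41 and Cdkn1a, an inhibitor of the cell cycle, by 0.31. In Vhl Cre cells 6 of the 25 rose and 6 fell, with Pmaip1 up by 0.60 and Btg2 down by 0.55. Among all genes tested 14.9% rose in Vhl/Rassf1a Cre cells, and 17.4% rose and 18.7% fell in Vhl Cre cells. The medians of the p53 targets were 0.02 in Vhl/Rassf1a and 0.01 in Vhl cells. In WT cells Mdm2 and Plk2 rose with Cre, by 0.24 and 0.18, and no gene of these lists passed with Cre in Rassf1a cells, with or without Rassf1a GFP replicate 1.

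**Figure D5:**
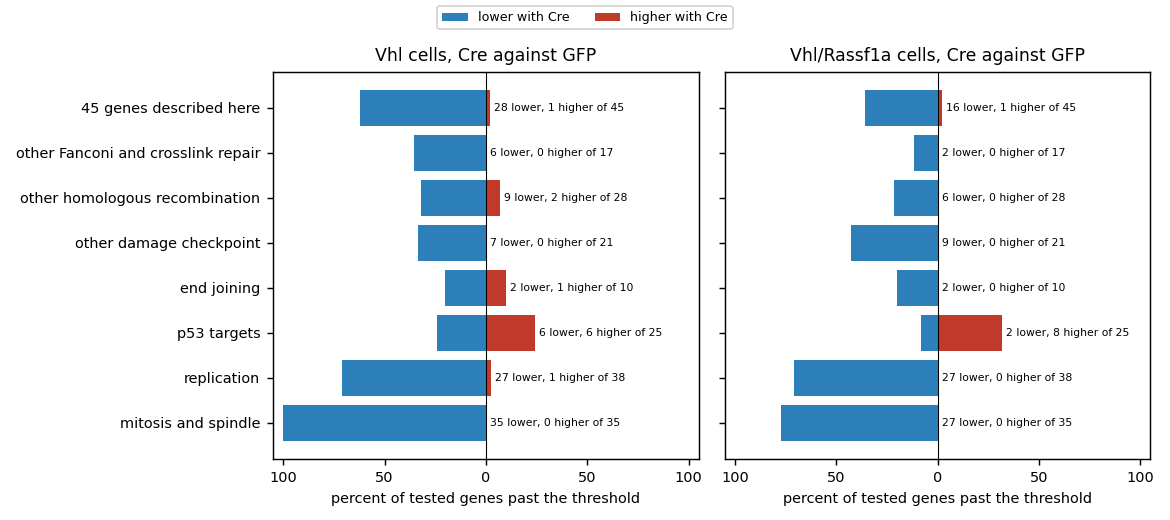
Percent of tested genes that passed the threshold (horizontal axis, 0 in the centre), lower with Cre to the left and higher to the right, for the 45 genes and 7 other lists, in Vhl cells and in Vhl/Rassf1a cells. The counts beside the bars show 28 of 45 lower in Vhl cells, against 35 of 35 for mitosis and spindle genes and 6 of 17 for other Fanconi genes.

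Markers of other cell types also moved with Cre in Vhl cells. The summed epithelium markers ran from 14.8 to 16.7 CPM in Vhl Cre cells and from 3.77 to 5.44 CPM in Vhl GFP cells, with 4 of 4 tested genes higher, and from 18.1 to 19.6 CPM in Vhl/Rassf1a Cre and 8.63 to 12.2 CPM in Vhl/Rassf1a GFP cells, with 2 of 4 higher. The defining epithelial genes Cdh1 and Epcam reached at most 0.518 and 0.371 CPM in any library. The summed endothelium markers ran from 11.9 to 13.1 CPM in Vhl Cre and from 5.55 to 6.75 CPM in Vhl GFP cells, with 3 of 5 higher. Pecam1 and Cdh5 reached at most 0.38 and 0.453 CPM. In WT GFP cells the endothelium sum ran from 11.7 to 12.8 CPM, which overlaps Vhl Cre cells. The epithelium sum in WT GFP cells ran from 8.64 to 9.07 CPM, between those of Vhl GFP and Vhl Cre cells. Of the proximal tubule list, Lrp2 and Cubn rose in Vhl Cre cells, with Lrp2 at a mean of 25.1 CPM in Vhl Cre and 6.92 CPM in Vhl GFP cells and at 17.0 CPM in Vhl/Rassf1a Cre and 9.78 CPM in Vhl/Rassf1a GFP cells. Aqp1, which made up most of that list's sum, fell in both genotypes and in WT Cre cells, by 0.41 there, and the sum ran from 193 to 198 CPM in Vhl Cre and from 187 to 228 CPM in Vhl GFP cells, and from 269 to 279 CPM in Vhl/Rassf1a Cre and 332 to 355 CPM in Vhl/Rassf1a GFP cells. Slc34a1, which defines those cells, was at 0 in 17 libraries and reached at most 0.0378 CPM.

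The summed fibroblast markers ran from 25618 to 28354 CPM in Vhl Cre and from 32831 to 34768 CPM in Vhl GFP cells. In WT GFP cells the fibroblast sum ran from 25194 to 28174 CPM, which overlaps Vhl Cre cells. With Cre in Vhl cells 4 of 8, Col1a1, Col1a2, Col3a1 and Pdgfra, fell, at log2 fold changes of -0.32, -0.50, -0.49 and -0.54. In Vhl/Rassf1a cells that sum ran from 26504 to 28586 CPM with Cre and from 25614 to 33355 CPM with GFP, and Dcn alone passed, higher. Dcn rose by 0.74 on the log2 scale there and by 0.80 with Cre in WT cells, where it passed as well. The neural sum ran from 126 to 130 CPM in Vhl Cre and from 176 to 196 CPM in Vhl GFP cells, where Tubb3 and Map2 fell with Cre. In WT GFP cells the neural sum ran from 121 to 126 CPM, near that of Vhl Cre cells. It ran from 117 to 121 CPM in Vhl/Rassf1a Cre and 114 to 123 CPM in Vhl/Rassf1a GFP cells, where Map2 fell and Tubb3 rose. Of the muscle list, Des rose by 0.45 in Vhl Cre and by 0.35 in Vhl/Rassf1a Cre cells, while the defining genes Myod1 and Myog reached at most 0.164 CPM each. The macrophage sum ran from 5.35 to 5.64 CPM in Vhl Cre and from 4.91 to 5.57 CPM in Vhl GFP cells, where Ptprc rose, and from 6.01 to 7.18 CPM in Vhl/Rassf1a Cre and 3.97 to 5.27 CPM in Vhl/Rassf1a GFP cells, where Cd68 rose. Its defining gene Adgre1 was at 0 in 23 of 24 libraries. Ptprc was low as well, at means of 0.291 CPM in Vhl Cre and 0.0716 CPM in Vhl GFP cells. The part of other cell types in the changes of the 45 genes was not tested.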

How the data were processed

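Per the labels' protocols, RNA was isolated with the NucleoSpin kit and libraries came from a TruSeq Stranded kit. Trimmomatic 0.38, STAR 2.5.2b and GRCm38 are named in the submitters' processing notes, but the counting tool, its strand setting and its gene annotation were not given in the sources used here. The authors deposited raw counts, whole numbers per Ensembl gene, for 45706 genes in 24 libraries. Symbols came from GENCODE M21, which named 45143 of them. No library pair looked like a repeated deposit (lowest chi-square per degree of freedom 2.93 in 24 pairs within groups and 5.24 in 252 pairs between groups). Groups came from the sample titles.

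The 45 genes and all lists were chosen with earlier results of these data known. Some genes of the pathways are not reported here. Genes were filtered with filterByExpr (minimum count 10, minimum total 15) in edgeR 4.0.16 (R 4.3.3), leaving 16573. One quasi-likelihood model with 8 group means, TMM normalization and 16 residual degrees of freedom covered all 24 libraries, with a biological coefficient of variation of 7.73%. In all, 12 comparisons were tested, two-sided, with Benjamini-Hochberg adjustment over all genes tested. SE is the log2 fold change divided by the square root of F. CPM used TMM library sizes. TPM used the summed length of annotated exons, or that of the longest transcript as an alternative. All 45 genes are named, up to 6 with full statistics in each Cre comparison by smallest adjusted p, others by role. Full statistics are also given for Brca1 and Nbn in Vhl cells and for Chek2 in Vhl/Rassf1a cells, outside that rule. Up to 4 genes of each other list are named. The model was tested on simulated counts. Alternatives were another normalization, no filter, only the groups compared, a replicate block, GC-corrected offsets, DESeq2 1.42.0, and each library left out.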

Additional observations from a re-analysis of the deposited data

Results flagged for a closer look

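The test of the difference between Cre effects in 2 genotypes passed for 31 pairs of a gene and a difference, and these are given as log2 values with no explanation. The Cre effect in Vhl cells minus that in WT cells was -1.13 for Fanci, -0.83 for Fanca, -0.82 for Rad54b, -0.75 for Exo1, -0.74 for Fancd2, -0.70 for Eme1, -0.68 for Rad54l, -0.65 for Rad51c, -0.51 for Clspn, -0.50 for Brip1, -0.46 for Bard1, -0.44 for Fancg, -0.24 for Trp53bp1 and -0.20 for Topbp1. The Cre effect in Vhl/Rassf1a cells minus that in WT cells was -0.66 for Fanca, -0.61 for Exo1, -0.60 for Bard1, -0.58 for Fanci, -0.57 for Rad51c, -0.51 for Rad54l, -0.50 for Fancd2 and -0.33 for Trp53bp1. The Cre effect in Vhl/Rassf1a cells minus that in Rassf1a cells was -0.70 for Fanca, -0.65 for Fanci, -0.64 for Exo1, -0.57 for Bard1, -0.53 for Rad51ap1, -0.50 for Rad54l, -0.48 for Fancd2 and -0.42 for Clspn. The Cre effect in Vhl/Rassf1a cells minus that in Vhl cells was 0.55 for Fanci.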

How the results depend on the processing

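No count of genes reversed direction. Fitting only the groups compared gave 10 of the 45 genes for Cre against GFP in Vhl/Rassf1a cells, and 0 for Vhl/Rassf1a minus Vhl, for Rassf1a GFP against WT GFP and for Vhl/Rassf1a GFP against WT GFP. GC-corrected offsets gave 26 for Vhl minus WT, 13 for Vhl/Rassf1a minus WT, 2 for Vhl/Rassf1a minus Vhl, 14 for Vhl/Rassf1a minus Rassf1a, 8 for Rassf1a GFP against WT GFP and 7 for Vhl/Rassf1a GFP against WT GFP. DESeq2 gave 2 for Vhl/Rassf1a minus Vhl. Without both GC-deviating libraries the counts were 14 for Vhl/Rassf1a minus WT and 2 for Vhl/Rassf1a minus Vhl. The cause of these shifts was not tested. Shares of all genes are not given for the alternative fits, so shifts particular to the 45 genes cannot be told from general ones. Leaving out 1 library gave 22 to 26 genes in Vhl cells, 11 to 17 in Vhl/Rassf1a cells, 11 to 16 for Vhl minus WT, 7 to 11 for Vhl/Rassf1a minus WT, 0 to 1 for Vhl/Rassf1a minus Vhl, 8 to 13 for Vhl/Rassf1a minus Rassf1a, 19 to 22 for Vhl GFP against WT GFP, and 1 to 4 for each of the other GFP comparisons. Replicate numbers did not pair the libraries: deviations of same-numbered Cre and GFP libraries correlated at -0.28 to 0.15. With the replicate number as a block the counts were 26 in Vhl, 17 in Vhl/Rassf1a, 0 in Rassf1a and 0 in WT cells, and 15 for Vhl minus WT. Calls that held under every alternative run numbered 17 of 29 in Vhl cells, 9 of 17 in Vhl/Rassf1a cells, 9 of 14 for Vhl minus WT and 16 of 23 for Vhl GFP against WT GFP. Low counts limit Atrip and Rad51b. With the longest transcript as the length, 28 of 45 mean TPM values moved by more than their SD over libraries. Counts of the other lists without the GC-deviating libraries were chosen after seeing the data.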
